A study of Mus musculus with 9 samples.

Results

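The primary granule genes described here are Mpo, Elane, Prtn3, Ctsg, Ms4a3, Cst7, Ctsc, Serpinb1a, Lyz2 and Hp. They were chosen by name, with earlier results of these data known. Every probe set (a group of short probes read as 1 measurement) whose single gene symbol is one of these names was taken. This gave 10 genes of 18193 and 13 probe sets of 45101. Serpinb1a had 2 probe sets, Ctsc had 3, and each of the other 8 genes had 1. Where a gene had several, the brightest stood for it.

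RNA came from sorted mouse bone marrow cells, with 3 arrays in each of 3 groups and each array from a 6-week-old mouse. LSK cells were negative for lineage markers and positive for cKit and Sca1, a gate that holds blood stem cells and multipotent progenitors. Granulocyte-monocyte progenitors (GMP) lacked lineage markers and Sca1 and carried cKit, CD34 and FcgammaRII/III. LSK WT and GMP WT cells came from Ncstn flox/flox mice, and GMP NcstnKO cells from Ncstn flox/flox Mx1-cre+ littermates. Ncstn encodes nicastrin, a subunit of the membrane protease gamma-secretase. Mice of all 3 groups, controls included, had been given polyIC, a double-stranded RNA that induces interferon, 3 times at 20 µg per g of body weight from 14 days of age. They were analysed 4 weeks later. Mx1-cre is switched on by interferon and is not limited to blood cells, and the mice called WT lack it. Loss of Ncstn and presence of the transgene therefore cannot be told apart.

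Neutrophils build their granules in sequence. Primary (azurophil) granules are filled at the promyelocyte stage with myeloperoxidase and a set of serine proteases, and their genes are switched on in granulocyte-monocyte progenitors. Secondary and tertiary granule proteins such as lactoferrin and gelatinase are made at later stages, when transcription of the primary granule genes has ceased. The 10 genes are not alike in this. Mpo, Elane, Prtn3 and Ctsg encode the classical cargo, and Ctsc, Cst7 and Serpinb1a encode proteins that activate or inhibit proteases. Ms4a3 marks granulocyte-monocyte progenitors, while Lyz2 and Hp are also made at later stages of myeloid cells, Lyz2 in macrophages too.

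The median intensity was 98.3 to 103 on the LSK arrays and 65.4 to 68.6 on the GMP arrays, so the deposited arrays did not share 1 distribution. The median difference over all genes between WT GMP and LSK was -0.18 (log2) on the deposited scale. Quantile normalization moved it to 0.05, and centring each array on its 75th percentile to 0.17. Ncstn measured 7.76 to 7.79 (log2 intensity) in NcstnKO GMP, 9.25 to 9.31 in WT GMP and 8.99 to 9.13 in LSK. By Xist and the Y-linked gene Eif2s3y, the 3 NcstnKO arrays were female and each WT group held 1 female and 2 male arrays. This went against the labelled sex on 4 of the 6 GMP arrays. The log2 ratio of the 3′ to the 5′ Actb control probe set, a measure of RNA length, was 0.577 ± 0.111 (SD, n = 3) in WT GMP, 0.899 ± 0.140 in NcstnKO GMP and 0.748 ± 0.108 in LSK. Of the measured markers of the stem cell gate, 9 of 9 were lower in WT GMP than in LSK by limma's test (median -2.52), and 7 of 9 markers of mast cells, basophils and eosinophils were higher (median 2.33). The summed level of the latter was 13.7 to 14.2 in LSK and 15.2 to 15.5 in WT GMP, and none of the 9 was at background. Of 11 monocyte and macrophage markers 4 were higher and 2 lower. F13a1 was higher by 0.99, Ccr2 by 1.03, Ly86 by 1.01 and Csf1r by 1.11, whereas C1qc differed by -0.76 and C1qb by -1.22. The summed level of the 11 was 13.3 to 13.8 in LSK and 14.2 to 14.5 in WT GMP. Over all genes 7.48% were called higher and 30.5% lower. The other marker lists went down or were mixed. Lower were 9 of 10 B and T lymphoid markers (median -1.93), 5 of 7 megakaryocyte, 4 of 10 erythroid, 2 of 7 dendritic cell and 3 of 7 stromal and endothelial markers, of which 1 of the last list was higher. The part of these cell types in the levels described here was not tested.

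The first question was how the primary granule genes differed between stem and multipotent progenitors and the committed myeloid progenitors of WT mice. In WT GMP 8 of the 10 genes were higher than in LSK, with rises from 0.39 to 1.75 on the log2 scale. Lyz2 was lower and Ctsc did not pass the test (limma, Benjamini-Hochberg adjusted p under 0.05). Of all genes tested, 7.48% were called higher and 30.5% lower. The fit did not pair arrays, and with a replicate block over LSK and WT GMP alone Hp was not called. The median difference was 0.64 over the 10 genes and -0.18 over all genes. The arrays of the 2 groups did not overlap for 9 of the 10, beside 54.6% of all genes. The genes were bright in both cell types, and none lay at background in any group. In bulk samples such as these, more cells of a type and more RNA per cell cannot be told apart.

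**Figure D1:**
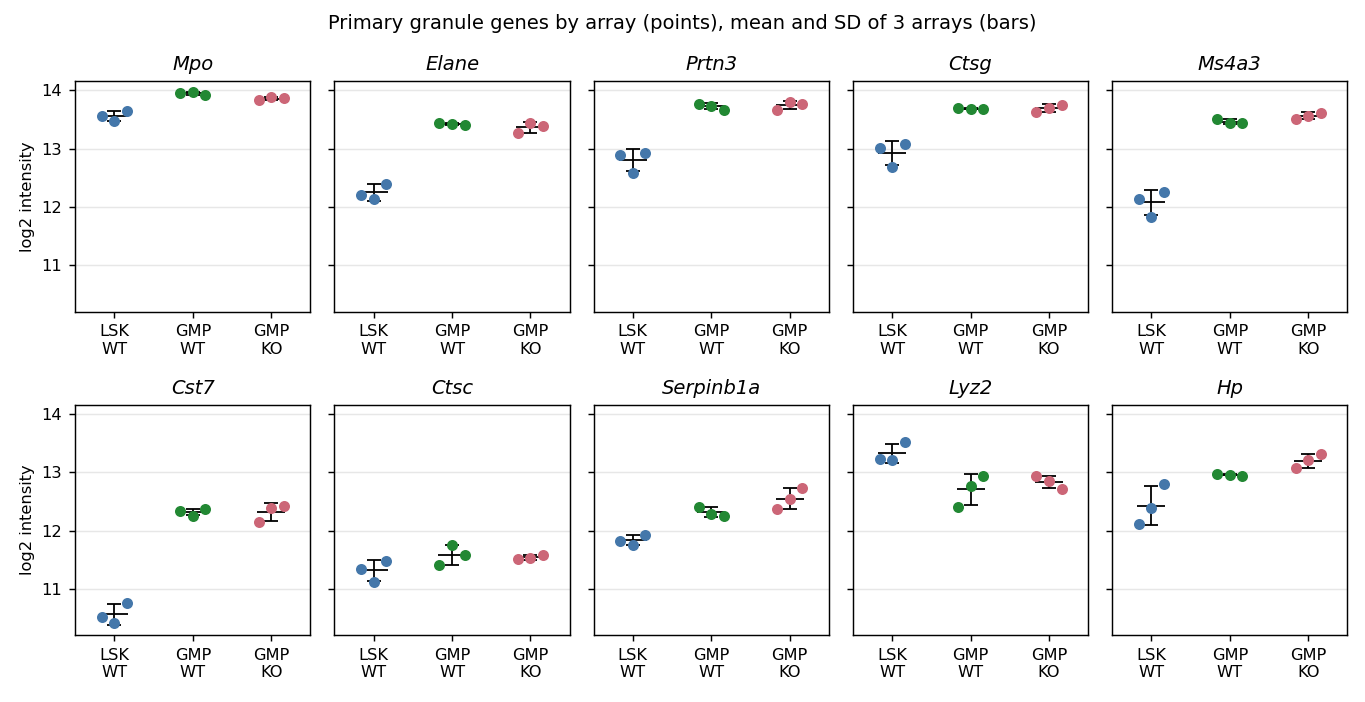
Log2 intensity of the 10 primary granule genes on each array, 1 panel a gene, with a point for each of the 3 arrays of LSK WT, GMP WT and GMP NcstnKO and a line at each group mean. Except for Ctsc and Lyz2, the 3 LSK arrays lie below the 6 GMP arrays, and the 2 GMP groups lie close together.

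Mpo, which encodes the enzyme that makes hypochlorous acid from hydrogen peroxide, measured 13.56, 13.48 and 13.64 on the LSK arrays. It measured 13.96, 13.97 and 13.91 in WT GMP and 13.83, 13.88 and 13.87 in NcstnKO GMP. The 3 LSK arrays were the lowest of the 9. Mpo rose by 0.39 from LSK to WT GMP (SE 0.0761, adjusted p = 0.00455), a 1.31-fold difference. Mpo was near the top of the scale in every group. On an LSK array 133 to 188 probe sets were brighter, against 34 to 44 on a WT GMP array, and the brightest of any array was 14.3 to 14.5. How far a limit of the scanner narrows this difference was not tested.

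Elane, Prtn3 and Ctsg encode neutrophil elastase, proteinase 3 and cathepsin G, serine proteases that are stored active in the primary granules. Elane measured 12.21, 12.13 and 12.40 in LSK, 13.44, 13.42 and 13.41 in WT GMP, and 13.26, 13.43 and 13.39 in NcstnKO GMP. The lowest GMP array was above the highest LSK array by more than the whole LSK range. Elane rose 2.26-fold (log2 1.18, SE 0.0936, adjusted p = 6.91e-05), the largest rise among the classical cargo genes named here. Prtn3 measured 12.89, 12.59 and 12.93 in LSK, 13.77, 13.73 and 13.67 in WT GMP, and 13.67, 13.80 and 13.76 in NcstnKO GMP. Ctsg measured 13.01, 12.69 and 13.07 in LSK, 13.69, 13.68 and 13.68 in WT GMP, and 13.62, 13.70 and 13.75 in NcstnKO GMP. For both genes the second LSK array was the lowest of the 9, and the GMP arrays lay above all LSK arrays. Prtn3 rose 1.90-fold (log2 0.92, SE 0.105, adjusted p = 0.000322) and Ctsg 1.69-fold (log2 0.76, SE 0.108, adjusted p = 0.000936).

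Ms4a3 encodes a membrane protein of the CD20 family that is found on granulocyte-monocyte progenitors. It measured 12.14, 11.84 and 12.26 in LSK, 13.51, 13.45 and 13.44 in WT GMP, and 13.51, 13.57 and 13.62 in NcstnKO GMP. Every GMP array was above every LSK array, and the rise from LSK to WT GMP was 2.61-fold (log2 1.38, SE 0.112, adjusted p = 7.58e-05).

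The genes for proteins that act on these proteases differed among themselves. Ctsc encodes cathepsin C (dipeptidyl peptidase I), which activates elastase, proteinase 3 and cathepsin G by removing an N-terminal dipeptide. Cst7 encodes cystatin F, an inhibitor of cathepsin C and related cysteine proteases. Cst7 measured 10.52, 10.41 and 10.77 in LSK, 12.34, 12.26 and 12.37 in WT GMP, and 12.15, 12.39 and 12.43 in NcstnKO GMP. It rose 3.37-fold (log2 1.75, SE 0.118, adjusted p = 3.28e-05), the largest rise of the 10. Ctsc measured 11.34, 11.13 and 11.49 in LSK and 11.42, 11.75 and 11.58 in WT GMP. The first WT GMP array lay below the highest LSK array, so the groups overlapped. The Ctsc difference was 0.26 (SE 0.119, 95% interval -0.01 to 0.53, adjusted p = 0.110). Ctsc passed after quantile normalization (0.36, adjusted p = 0.0424) and after centring on the 75th percentile (0.61, adjusted p = 0.00401). After centring 9 of the 10 genes were higher and 0 lower, with the median over all genes at 0.17. The share of all genes called after centring is not given here.

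The 3 Ctsc probe sets did not agree. Against 0.26 for the brightest, the dimmer probe sets gave -0.33 (adjusted p = 0.427) and -0.58 (adjusted p = 0.280) in a fit over 45037 probe sets. They varied widely within a group, one from 8.06 to 9.19 and the other from 7.67 to 8.87 on the LSK arrays alone. In that fit 9 of the 13 probe sets were higher and 1 lower in WT GMP than in LSK, beside 6.04% higher and 28.8% lower of all probe sets, and the other 3 were those of Ctsc.

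Serpinb1a encodes an intracellular inhibitor of elastase, proteinase 3 and cathepsin G. It measured 11.82, 11.76 and 11.93 in LSK, 12.41, 12.29 and 12.25 in WT GMP, and 12.37, 12.54 and 12.74 in NcstnKO GMP. The LSK arrays were the 3 lowest, and the rise to WT GMP was 1.39-fold (log2 0.48, SE 0.109, adjusted p = 0.00907). Its second probe set gave 0.45 (adjusted p = 0.0398). The Serpinb1a difference was 0.41 and no longer passed once the Actb ratio was a covariate (adjusted p = 0.0594). The close paralog Serpinb1b lay at background, between 3.29 and 3.50 on the 9 arrays.

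Hp encodes haptoglobin, which binds free hemoglobin. It measured 12.12, 12.38 and 12.79 in LSK, 12.97, 12.96 and 12.95 in WT GMP, and 13.07, 13.22 and 13.31 in NcstnKO GMP. The LSK arrays were spread over a wide range that ended below the lowest GMP array. Hp rose 1.44-fold (log2 0.53, SE 0.157, adjusted p = 0.0281). This call was the least stable of the rises. It was lost when any single LSK or WT GMP array but the third LSK array was left out (0.37 to 0.53, adjusted p = 0.0672 to 0.0766), with the Actb ratio as a covariate (0.49, adjusted p = 0.117), and with a replicate block over LSK and WT GMP alone (0.53, adjusted p = 0.0509).

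Lyz2 encodes lysozyme, which cleaves bacterial cell walls and is a widely used marker of myeloid cells. It went against the other genes. Lyz2 measured 13.24, 13.22 and 13.52 in LSK, 12.41, 12.77 and 12.94 in WT GMP, and 12.93, 12.86 and 12.72 in NcstnKO GMP. The 3 LSK arrays were the highest of the 9. Lyz2 was 1.53-fold lower in WT GMP than in LSK (log2 -0.62, SE 0.147, adjusted p = 0.0113). After centring on the 75th percentile the difference was -0.27 and did not pass (adjusted p = 0.167). The paralog Lyz1, whose transcript is nearly identical, gave -0.51 (adjusted p = 0.0155) and -0.55 (adjusted p = 0.0101) on its 2 bright probe sets, and signal may be shared between both genes.

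**Figure D2:**
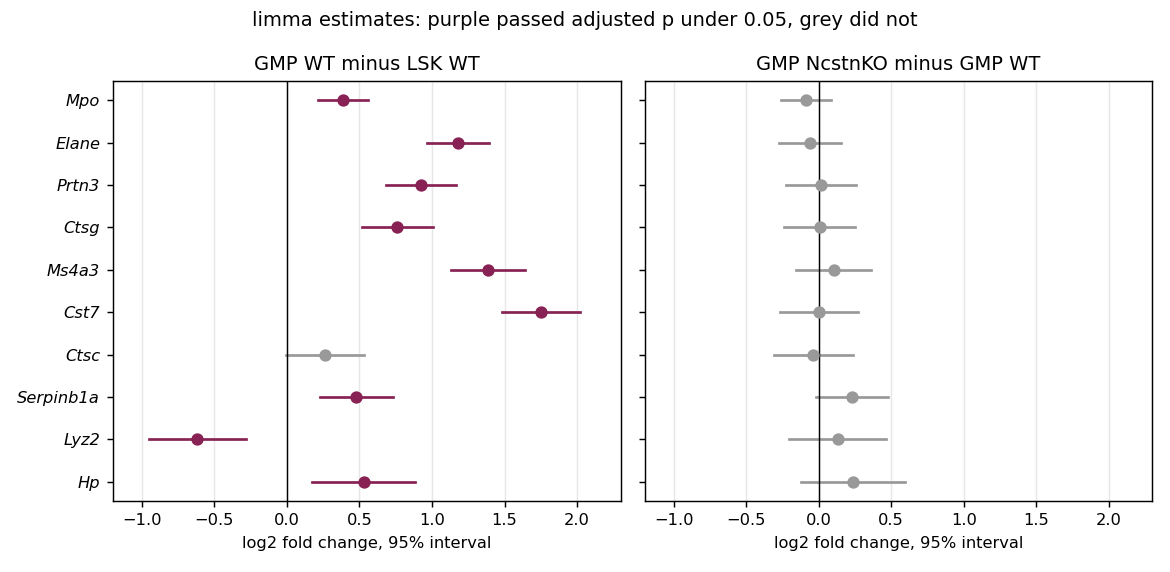
Log2 fold change of each of the 10 genes with its 95% interval from limma, for GMP WT minus LSK WT (left) and GMP NcstnKO minus GMP WT (right), with called genes in purple and others in grey. On the left 8 genes are above 0 and called, Lyz2 is below 0 and called, and Ctsc is not called. On the right every interval includes 0.

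The genes that rose from LSK to WT GMP can be set beside the sequence just before their starts. RefSeq promoters (GRCm38.p6) were given for 8 of the 10 genes; Serpinb1a and Hp are named only. The letters of 10 motifs were searched for on both strands in the 250 bases before each start. GGAAGT, the core bound by ETS factors such as PU.1 (Spi1), was present in 8 of 8, beside 19.7% of 32851 promoters. GAGGAA, which can overlap it, was present in 5 of 8 (23.3% of all promoters). TGTGGT, the core bound by RUNX factors, was in 3 of 8 (14%), and TTNCNNAA, a relaxed C/EBP core, in 3 of 8 (36.8%). The stricter TTGCNNAA was in 0 of 8 (9.56%). The Myb-like AACNGN was in 7 of 8 (74.1%), TAACNG in 2 (19.8%) and AACNGTC in 1 (6.64%). CCAAT was in 2 of 8 (33.8%) and TATAAA in 1 (12.4%). The match count is a description of these letters, and nothing was measured of any factor's binding here. The match was also present for Lyz2, which was lower, and Ctsc, which was not called. The 120 bases before the start are shown for the 5 genes whose match lies inside them, so that its place can be compared, with the match in capitals (GGAAGT, or its reverse complement ACTTCC).
Elane, chr10:79886192-79886311, plus strand: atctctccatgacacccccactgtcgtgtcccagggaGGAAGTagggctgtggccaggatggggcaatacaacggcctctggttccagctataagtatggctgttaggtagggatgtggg
Prtn3, chr10:79879547-79879666, plus strand: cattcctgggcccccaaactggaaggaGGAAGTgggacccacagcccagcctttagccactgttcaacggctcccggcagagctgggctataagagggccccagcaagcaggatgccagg
Ms4a3, chr19:11640852-11640971, minus strand: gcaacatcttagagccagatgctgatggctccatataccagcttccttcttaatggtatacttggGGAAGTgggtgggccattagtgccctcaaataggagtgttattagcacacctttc
Cst7, chr2:150570295-150570414, plus strand: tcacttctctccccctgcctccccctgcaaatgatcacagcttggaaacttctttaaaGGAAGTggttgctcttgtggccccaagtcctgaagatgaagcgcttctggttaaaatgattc
Lyz2, chr10:117282273-117282392, minus strand: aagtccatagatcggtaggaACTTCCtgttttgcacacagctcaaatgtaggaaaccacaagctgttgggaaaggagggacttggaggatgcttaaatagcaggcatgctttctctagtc
Counted from the first base of the match as printed, it began 83 bases before the start of Elane, 93 before Prtn3, 55 before Ms4a3, 62 before Cst7 and 100 before Lyz2. In the others it began 222 bases before Mpo, 205 before Ctsg and 151 before Ctsc. The matches before Lyz2 and Ctsc were on the strand opposite to the gene.

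The second question was whether loss of Ncstn altered these genes in GMP. No difference between NcstnKO and WT GMP passed the test for any of the 10 genes, and 0 of 10 had an unadjusted p under 0.05 in limma. Over all genes 5.7% were called and 24.4% had an unadjusted p under 0.05. In the fit over probe sets 0 of 13 were called, beside 1.75% of all probe sets, and 1 of 13 had an unadjusted p under 0.05, the second probe set of Serpinb1a (log2 0.36, SE 0.143, adjusted p = 0.211). The median difference over the 10 genes was 0.01, and over all genes 0.06.

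The intervals show which sizes of change in array signal the 3 against 3 arrays could leave unseen. The classical cargo genes were near the top of the scale. On a NcstnKO GMP array 56 to 69 probe sets were brighter than Mpo, 80 to 125 than Prtn3 and 93 to 145 than Ctsg. How far a limit of the scanner narrows these differences and their intervals was not tested. For the classical cargo, the 95% interval of the ratio of NcstnKO to WT GMP ran from 0.834 to 1.06 for Mpo, from 0.826 to 1.11 for Elane, from 0.857 to 1.20 for Prtn3 and from 0.848 to 1.19 for Ctsg. It ran from 0.899 to 1.28 for Ms4a3, from 0.831 to 1.20 for Cst7 and from 0.809 to 1.18 for the brightest Ctsc probe set. The dimmer Ctsc probe sets had wider intervals in the fit over probe sets. One ran from 0.920 to 2.37 (log2 0.56, adjusted p = 0.341) and the other from 0.713 to 2.46 (log2 0.41, adjusted p = 0.617). Both differences were positive, against -0.04 for the brightest. The interval ran from 0.988 to 1.40 for Serpinb1a (log2 0.23, adjusted p = 0.232), from 0.868 to 1.38 for Lyz2 (0.13, adjusted p = 0.627) and from 0.921 to 1.51 for Hp (0.24, adjusted p = 0.390).

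The arrays of the 2 GMP groups did not overlap for 3 of the 10 genes, beside 31.9% of all genes (18.5% higher and 13.4% lower in NcstnKO GMP). Mpo was lower on each NcstnKO array than on any WT array, by at least 0.0287 (log2 -0.09, SE 0.0761, adjusted p = 0.519). Hp was higher on each NcstnKO array, by at least 0.101, and Ms4a3 by at least 0.00144 (log2 0.10, adjusted p = 0.620). The SD of Mpo was 0.0317 in WT GMP, 0.0276 in NcstnKO GMP and 0.0784 in LSK, and the SE above pools the spread of the 3 groups. With 3 arrays a group, the smallest p of an exact 2-sided permutation test is 0.1.

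Markers of some other cell types differed between the same GMP groups, where 5.7% of all genes were called. Of 10 erythroid markers 7 were lower in NcstnKO GMP and 0 higher (median -1.51), with a summed level of 14.5 to 15.2 (log2) in WT GMP and 13.7 to 14.1 in NcstnKO GMP, and Hba-a1 at background in every group. Of 11 monocyte and macrophage markers 3 were lower (C1qa, C1qb and C1qc), and of 7 megakaryocyte markers 3 were lower. The summed level was 14.2 to 14.5 in WT GMP and 14.1 to 14.4 in NcstnKO GMP for the monocyte and macrophage list, and 12.5 to 12.9 and 12.1 to 12.5 for the megakaryocyte list, with no marker of either at background. Called were 0 of 9 mast cell, basophil and eosinophil markers, 0 of 10 B and T lymphoid, 0 of 7 dendritic cell, and 0 of 7 stromal and endothelial markers. Of 9 markers of the stem cell gate 1 was higher and 0 lower (median -0.10). The largest rise was that of Thy1, with means of 5.79 in WT GMP and 7.16 in NcstnKO GMP. The part of these cells in the levels of the primary granule genes was not tested. The transcript sex of the arrays and the Actb ratio differed too, and with either as a covariate 0 of the 10 genes were called.

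The third comparison, NcstnKO GMP with LSK, uses the same LSK arrays as the first, so its values are set beside the first and are no repeat of it. Again 8 of the 10 genes were higher and Lyz2 was lower, beside 14.6% of all genes higher and 32.3% lower. The rises were 0.30 for Mpo (adjusted p = 0.0112), 1.11 for Elane (5.38e-05), 0.94 for Prtn3 (0.000191) and 0.77 for Ctsg (0.000599). The rise was 1.49 for Ms4a3 (adjusted p = 3.45e-05), 1.75 for Cst7 (2.36e-05), 0.71 for Serpinb1a (0.000926) and 0.77 for Hp (0.00401). Ctsc differed by 0.23 and did not pass (adjusted p = 0.146). The median was 0.77 over the 10 genes and -0.12 over all genes. The Mpo call was lost with transcript sex as a covariate (0.29, adjusted p = 0.0532). Lyz2 differed by -0.49 (adjusted p = 0.0247). The Lyz2 call was lost after centring (-0.10, adjusted p = 0.562), with transcript sex (-0.30, adjusted p = 0.165) or the Actb ratio (-0.41, adjusted p = 0.106) as a covariate, and without the third LSK array (-0.39, adjusted p = 0.0804), the second NcstnKO array (-0.50, adjusted p = 0.0541) or the third (-0.43, adjusted p = 0.0749).

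The primary granule genes shared much of their order among the LSK arrays. The third LSK array was the highest of the 3 for 10 of the 10 genes, and the second was the lowest for 9, with Hp lowest on the first. The median SD over the 10 genes was 0.182 in LSK, 0.0444 in WT GMP and 0.0789 in NcstnKO GMP. The median SD over all genes was 0.145, 0.123 and 0.151. In WT GMP the smallest SD was that of Ctsg, 0.00771, and the largest that of Lyz2, 0.267. In NcstnKO GMP the first array was the lowest of the 3 for 9 of the 10 genes. The share of all genes with the same order of arrays was not counted, so these orders may not be particular to the 10 genes. With any single array left out, 8 or 9 of the 10 genes were called in both comparisons with LSK. The shares of all genes called in those fits are not given here.

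Across the 9 arrays the 10 genes did not follow 1 course. Pearson's r with the median profile of the 10 (each gene centred on its mean) was 0.994 for Ms4a3, 0.991 for Prtn3 and 0.952 for Mpo. It was 0.909 for Hp, 0.790 for Ctsc and -0.781 for Lyz2. Each gene is itself part of that median, and the 9 points fall into an LSK cluster and a GMP cluster, so these values are descriptions. Lyz2 instead had an r of 0.935 with the median profile of 10 late neutrophil granule genes, whereas for the other 9 genes this r lay between -0.88 and -0.50. The LSK and GMP clusters shape these values too. Over the WT GMP arrays Lyz2 and the late median both rose from the first to the third. Over the NcstnKO GMP arrays Lyz2 fell (-0.02, -0.10 and -0.23), while the late median was lowest on the first (-0.35, -0.02 and -0.08).

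**Figure D3:**
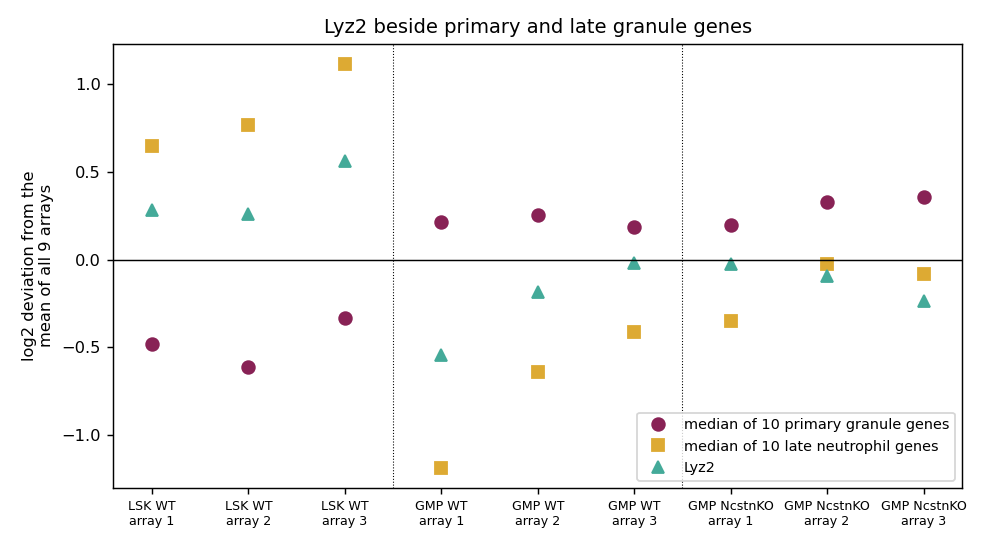
Log2 level on each of the 9 arrays, each gene centred on its own mean. Shown are the median of the 10 primary granule genes (Lyz2 included), Lyz2 alone, and the median of 10 late neutrophil granule genes. Lyz2 and the late genes are high on the LSK arrays and lower on the GMP arrays, and the median of the primary granule genes runs the opposite way.

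The late neutrophil granule genes themselves were lower in WT GMP than in LSK in 10 of 10 measured cases (median -1.59), beside 30.5% of all genes. They include Mmp9 (gelatinase B), which fell by 3.23, Cd177, which fell by 3.00, Mmp8 (neutrophil collagenase), which fell by 2.87, and Chil3, which fell by 1.47 on the log2 scale. After centring, 8 of 10 were lower (median -1.24). Their summed level was 16.2 to 16.6 on the LSK arrays, 15.1 to 15.5 in WT GMP and 15.6 to 15.8 in NcstnKO GMP, and none of the 10 was at background in any group. The third LSK array, the highest for each primary granule gene, was also the highest for 9 of the 10 late genes. In NcstnKO against WT GMP 1 of the 10 was called, beside 5.7% of all genes. It was Camp (cathelicidin), which rose by 0.81 (adjusted p = 0.0389), and the median of the 10 was 0.61. Leaving out any single array but the third LSK array ended the Camp call (0.62 to 0.94, adjusted p = 0.0530 to 0.0965). The part of cells at later neutrophil stages in the LSK levels of Lyz2 or of the other genes was not tested.

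Genes that work with the primary granule proteins were described from lists, also chosen with earlier results of these data known. Beside the counts below, 7.48% of all genes were called higher in WT GMP than in LSK and 30.5% lower. The list of protein folding in the endoplasmic reticulum, where granule proteins are made, had 9 of 10 genes higher in WT GMP than in LSK and 0 lower (median 0.51). Pdia4 rose by 1.20, Pdia6 by 1.03, Hsp90b1 by 0.67 and Pdia3 by 0.48, all of them encoding chaperones or disulfide isomerases. Of 9 measured transcription factors and receptors tied to granule gene expression 5 were higher and 0 lower (median 0.42). These included Cebpa (0.75), Spi1 (0.76), Gfi1 (0.70) and Cebpd (0.79), each a transcription factor of the myeloid lineage. The higher counts were 9 and 5 after quantile normalization and 10 and 7 after centring.

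Other azurophil granule and lysosome cargo was mixed. Of 10 measured genes 5 were higher and 1 lower (median 0.24). The lysosomal hydrolase genes Arsb (1.10) and Hexa (0.88) and the protease gene Ctsz (0.76) rose, and Ctsd, encoding cathepsin D, fell by 0.40. After centring 7 were higher and 0 lower. Among 10 genes of granule sorting and release 3 were higher and 2 lower (median -0.01). Ap3s1, a subunit of the AP-3 adaptor that sorts cargo to granules, rose by 1.10 and Lamtor2 by 0.69. Unc13d, which primes granules for release, fell by 0.74 and Vps13b by 0.59. After centring 6 were higher and 1 lower.

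The list of other serpins and cystatins, which also holds Slpi, mostly went against Serpinb1a and Cst7. Of 11 measured 7 were lower and 1 higher (median -0.47), with Serpinb6b at -1.79, Serpinb9 at -1.38 and Serpinb8 at -1.36. The 1 higher gene was Slpi, which rose by 1.09. It encodes a secreted inhibitor of elastase and cathepsin G that is neither a serpin nor a cystatin. Of the 7 lower genes, Serpinb2 and Csta1 were at background in all 3 groups. After centring 4 were higher and 5 lower. Between NcstnKO and WT GMP these 5 lists together held 1 called gene of 50 measured, beside 5.7% of all genes. It was Stfa3, a stefin, which was higher by 3.73 (SE 0.778, adjusted p = 0.0356). Stfa3 measured 5.25, 5.84 and 5.26 in WT GMP and 7.20, 9.32 and 11.001 in NcstnKO GMP, so the NcstnKO arrays were all higher but far apart. The Stfa3 difference was 2.81 without the third NcstnKO array (adjusted p = 0.0612) and 4.71 without the first (adjusted p = 0.0145). Leaving out any other of the 9 arrays also ended the call (adjusted p = 0.0507 to 0.128). Of the 50 measured genes of the 5 lists, 6 had an adjusted p from 0.05 to 0.1 and were not called, 3 of them positive and 3 negative. The positive ones were the serpins Serpinb6a (0.85, adjusted p = 0.0525), Serpinb6b (0.54, adjusted p = 0.0748) and Serpinb9 (0.60, adjusted p = 0.0886). The negative ones were Man2b1 (-0.43, adjusted p = 0.0506), Sel1l (-0.36, adjusted p = 0.0560) and Ap3d1 (-0.30, adjusted p = 0.0779).

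**Figure D4:**
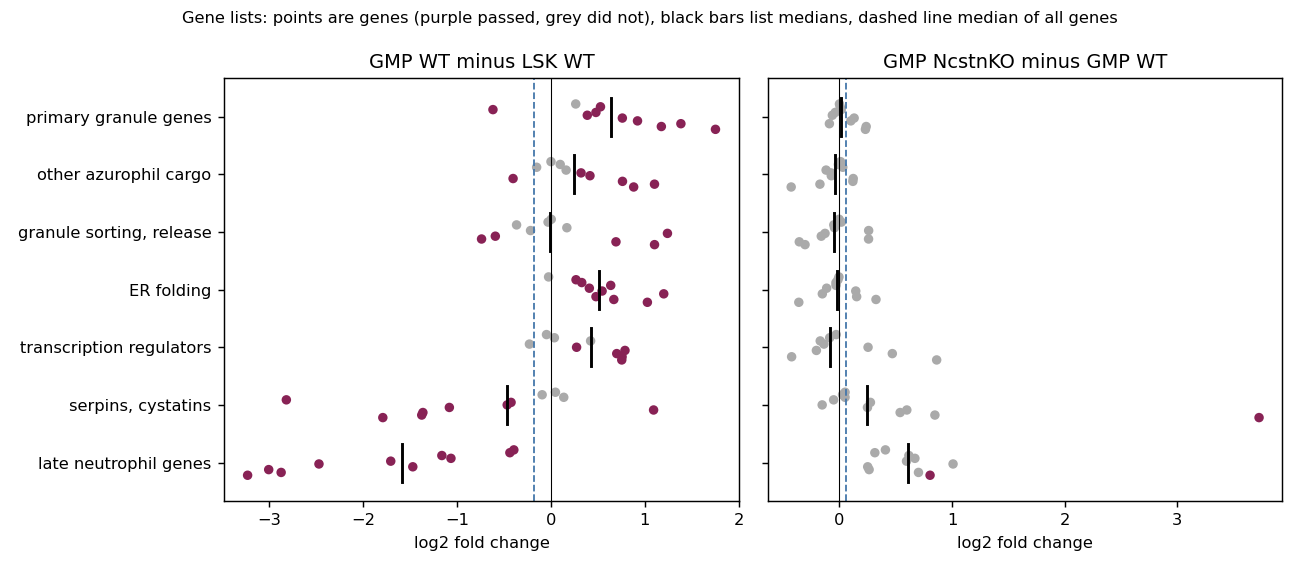
Log2 fold change of the measured genes in the primary granule set and 6 other lists, with a point for each gene and a line at each list's median, for the 2 comparisons named on the panels. For WT GMP minus LSK, the medians are 0.64 for the primary granule genes, 0.51 for the folding list and -1.59 for the late neutrophil granule genes.

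The genes whose levels over the 9 arrays were most like the median profile of the primary granule genes were Plac8 (r = 0.996), Slc22a4 (0.994), Sdf2l1 (0.993), Tfec (0.991), Ap3s1 (0.988) and Ifngr1 (0.988), out of 9087 genes in the brighter part of the range. From LSK to WT GMP they rose by 0.44 for Plac8, 1.70 for Slc22a4, 1.96 for Sdf2l1, 1.99 for Tfec, 1.10 for Ap3s1 and 1.24 for Ifngr1. The choice by likeness over the same 9 arrays fixes this course, so the values are a description. Between NcstnKO and WT GMP the differences ran from 0.02 for Ap3s1 to 0.28 for Ifngr1.

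Genes that lie next to the primary granule genes in the RefSeq order were also read, a choice made after the values could be seen. Of 15 measured neighbours that are not in the set, 7 were higher and 3 lower in WT GMP than in LSK, beside 7.48% and 30.5% of all genes, and 0 were called between NcstnKO and WT GMP (5.7% of all genes). Grm5, a neighbour of Ctsc counted among the higher ones, lay below background in both groups, at means of 3.18 in LSK and 3.50 in WT GMP. Lyz1, a neighbour of Lyz2 counted among the lower ones, may share signal with Lyz2. Prtn3 and Elane are neighbours of each other and both rose. Their other measured neighbour, Plppr3, differed by 0.18 (adjusted p = 0.670). Mpo lies between Tspoap1, which rose by 2.62 (SE 0.214, adjusted p = 7.58e-05), and the lactoperoxidase gene Lpo, which rose by 1.48 (adjusted p = 0.000150). Ctsg lies beside Mcpt8, a protease gene of basophils, which rose by 1.99 (adjusted p = 0.000783). Ms4a3 lies beside Ms4a2, which encodes the beta chain of the IgE receptor and rose by 2.87 (adjusted p = 0.000178). Mcpt8 and Ms4a2 are also among the mast cell, basophil and eosinophil markers counted above. Beside Ctsc, Rab38 fell by 0.78 (adjusted p = 0.000610), whereas Ctsc itself was not called.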

How the data were processed

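RNA from 9 sorted samples was measured on Affymetrix arrays. Per the labels' protocols, 5 ng of total RNA was amplified and the cDNA labelled with biotin. The authors deposited linear intensity values per probe set, made with RMA per the submitters' processing notes, and the sources used here do not say whether the arrays were normalized as 1 set. Intensities ran from 3.79 to 23177, and log2 was taken. The number of arrays limits the precision.

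Gene names came from GEO's platform annotation, in which 34945 probe sets had 1 symbol, 932 several and 9160 none; 64 control probe sets were left out. The brightest probe set stood for a gene. All 18193 genes, and separately 45037 probe sets, were fitted with limma 3.58.1 in R 4.3.3 (lmFit, eBayes, 2-sided) on 3 group means with 6 residual degrees of freedom. Each adjusted p is limma's with Benjamini-Hochberg adjustment over all genes or probe sets of that fit, called under 0.05. Background was the 95th percentile of 27 unspiked control probe sets, 4.30 to 4.57 (log2) per array. Summed levels are log2 of summed intensities. The labels name 1 mouse per array, and nothing says whether LSK and GMP came from the same mice.

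The members and lists were chosen with earlier results of these data known. The genes named from each list are up to 4 with the smallest p in a comparison, and neighbours of the members were added after values were seen. List genes not measured under a single symbol of their own were not analysed here.

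The labels number arrays 1 to 3 in each group. After group means were subtracted, LSK and WT GMP arrays with the same number correlated at 0.219, 0.238 and 0.291 across genes. Each was the best match. On the evidence of the data alone, the numbers were used as a pairing only in the alternatives with a replicate block. The main fit did not pair arrays. Same-numbered NcstnKO arrays correlated at -0.0924 to 0.0440 and were not paired.

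On simulated data for WT GMP against LSK with 18193 genes, the fit called 11 of 100 genes changed by 0.5 (log2), 68 of 100 changed by 1, and 0 unchanged genes. Only 200 genes were changed there, whereas in the data 7.48% of all genes were called higher and 30.5% lower. The adjustment was therefore stricter in the simulation, and its shares do not give the power of the comparison itself. Promoters are RefSeq's (GRCm38.p6). Alternatives were quantile normalization, centring on the 75th percentile, the mean of a gene's probe sets, leaving out the dimmest 40% of genes, fits of 2 groups, a replicate block, sex or the Actb ratio as a covariate, eBayes with trend, and leaving out each array.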

Additional observations from a re-analysis of the deposited data

How the results depend on the processing

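Of the 10 primary granule genes, 7 to 10 were called in WT GMP against LSK and 7 to 10 in NcstnKO GMP against LSK over the alternatives. In NcstnKO against WT GMP 0 were called in 19 of 19 alternatives. The share of all genes called is given for the main fit only, so counts under the alternatives have no such share beside them. A replicate block over all 9 arrays changed no call of these genes. A replicate block over LSK and WT GMP alone, added after the data were seen, ended the call of Hp (0.53, adjusted p = 0.0509). The self-test called 11 of 100 genes changed by 0.5 and 68 of 100 changed by 1. It changed far fewer genes than were called in the data, so these shares do not give the power of WT GMP against LSK.

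The count of 95% intervals that left out 0 between the GMP groups was 0, and 1 after centring, with the mean of probe sets or with trend (Serpinb1a each time), 1 with only the 2 groups fitted (Hp), and 0 to 1 when 1 array was left out. The count of called genes in the other lists between the GMP groups was 2. It was 5 without the dimmest 40% of genes, 10 with trend, 0 with only the 2 groups fitted or with label sex, transcript sex or the Actb ratio as a covariate, and 0 to 1 when 1 array was left out. The cause was not tested.

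Signs turned only for differences that were not called. Between NcstnKO and WT GMP, Ctsg was -0.000447 after quantile normalization and -0.0391 with transcript sex. Ctsc was 0.31 with the mean of probe sets, 0.0363 when transcript sex was fitted and 0.22 when the Actb ratio was. Cst7 was -0.11 with label sex, Prtn3 -0.0488 with transcript sex and Elane 0.0804 with the Actb ratio. Leaving out 1 array gave -0.0222 to 0.0426 for Ctsg, -0.118 to 0.0469 for Ctsc, -0.0534 to 0.0888 for Cst7, -0.0117 to 0.0544 for Prtn3 and -0.0152 to 0.246 for Lyz2. Ctsc in WT GMP against LSK was -0.22 with the mean of probe sets.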
